A study of Mus musculus with 5 samples.

Results

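The endothelial cells of PyMT mouse mammary tumours line the tumour's blood vessels, and 396 of the 15958 cells profiled in 5 single-cell RNA-sequencing libraries were taken as such. A cell was taken when it held at least 4 unique molecular identifiers (UMIs, each a counted transcript molecule) summed over Pecam1, Cdh5, Emcn, Plvap and Egfl7, with under 10 UMIs per 10000 of the complement genes C1qa, C1qb and C1qc and under 10 per 10000 of the epithelial genes Krt8, Krt18 and Epcam. The cells were thus chosen by their counts of 11 genes, so the 5 vessel genes, and every comparison of the gated cells with the others, are given as a description. PyMT tumours arise in mice that carry the polyoma middle T oncogene. The labels describe all libraries as mammary tumour and give no strain, age, sex or number of animals, and nothing says that libraries of one kind came from separate animals.

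The study compared high-throughput platforms for profiling complex tissue. Tumours were digested to single cells and enriched for viable cells, and cells were captured with 10x Genomics 3' v2 chemistry or BD Rhapsody whole-transcriptome beads. Of the 10x libraries, 2 are labelled fresh and 1 (4000 cells) is labelled 24 h. The extraction protocol describes low-quality material as digested tumour kept overnight at 4 °C, with a fall in viability verified by flow cytometry, and the third 10x library is called the stored library here. Both BD Rhapsody libraries are titled fresh, BD 1 with 3772 cells and BD 2 with 4186, but the BD 2 files carry a 24 h name. The labels of BD 2 therefore conflict on storage, and its values stand beside the others without entering a storage comparison.

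Endothelial cells are held together by VE-cadherin (Cdh5) and claudin-5 (Cldn5), respond to vascular endothelial growth factor (VEGF) through its receptors Kdr and Flt1, and are kept in identity by ETS and SOX transcription factors such as Erg, Fli1, Sox17 and Sox18. Arteries are marked by Notch signalling, connexins and ephrin-B2, veins by the nuclear receptor Nr2f2 together with selectins and the chemokine-binding receptor Ackr1, and sprouting tip cells by Esm1, Apln and Angpt2. Capillary endothelium takes up fatty acids through Gpihbp1, Cd36 and Fabp4. In tumours, vessels are known for continued sprouting, leakiness and loose contact with pericytes, the mural cells that wrap capillaries.

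Promoters of the genes with the highest level in the gated cells relative to the others are shown first, because the letters AGGAAG, a core that ETS factors can bind, occur in many of them. RefSeq (assembly GRCm38.p6) gave a promoter for 12 of the 20 genes named for that comparison. In 9 of the 12 (75%) the 250 bases before the start held AGGAAG or its reverse complement CTTCCT. Of all 32851 promoters in the table, 29.5% held them, and of promoters of genes tested 28.3%. The promoters shown belong to Adgrl4, an adhesion receptor of sprouting vessels, Robo4, a guidance receptor that steadies vessels, and the leukocyte-capturing selectins Sele and Selp. They lie at chr3:151437632-151437881 for Adgrl4, chr9:37401722-37401971 for Robo4, chr1:164047984-164048233 for Sele, chr1:164115014-164115263 for Selp, all on the forward strand, just upstream of each gene's start, and capitals mark the letters searched.
Adgrl4: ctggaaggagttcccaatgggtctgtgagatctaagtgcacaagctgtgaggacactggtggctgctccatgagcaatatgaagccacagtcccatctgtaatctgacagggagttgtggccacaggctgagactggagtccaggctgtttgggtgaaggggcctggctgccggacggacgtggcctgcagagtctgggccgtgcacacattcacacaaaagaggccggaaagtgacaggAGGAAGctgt
Robo4: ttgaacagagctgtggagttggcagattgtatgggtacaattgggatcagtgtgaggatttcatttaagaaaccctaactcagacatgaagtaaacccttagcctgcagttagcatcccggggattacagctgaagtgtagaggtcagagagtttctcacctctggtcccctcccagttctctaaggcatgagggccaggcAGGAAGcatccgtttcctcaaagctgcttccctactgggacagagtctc
Sele: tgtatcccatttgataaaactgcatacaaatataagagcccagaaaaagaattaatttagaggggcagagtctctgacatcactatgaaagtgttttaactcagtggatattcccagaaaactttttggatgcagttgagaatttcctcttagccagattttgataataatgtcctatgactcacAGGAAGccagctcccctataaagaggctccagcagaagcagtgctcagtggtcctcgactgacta
Selp: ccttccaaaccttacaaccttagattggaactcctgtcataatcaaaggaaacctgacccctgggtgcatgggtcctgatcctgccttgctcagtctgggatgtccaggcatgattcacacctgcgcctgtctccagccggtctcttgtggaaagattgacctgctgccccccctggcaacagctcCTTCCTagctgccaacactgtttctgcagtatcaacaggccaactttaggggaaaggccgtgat
The promoters of Myct1, Cldn5 and Kdr held neither spelling in the same window. A match is a description of the letters and was not tested as a binding site.

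Gated cells were rarer in each of the other libraries than in either fresh 10x library. They numbered 170 (8.19% of all cells, exact 95% binomial interval 7.05 to 9.46%) in the first fresh 10x library and 83 (4.31%, 3.45 to 5.32%) in the second. In the stored library they made up 79 of 4000 (1.98%, 1.57 to 2.46%), in BD 1 48 of 3772 (1.27%, 0.940 to 1.68%) and in BD 2 16 of 4186 (0.382%, 0.219 to 0.620%). Intervals cover counting error only, and none of the 5 overlapped its neighbour except those of the stored library and BD 1. The 2 fresh 10x libraries thus differed from each other beyond counting error, and with 2 libraries against 1 no test of the share was made.

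**Figure D1:**
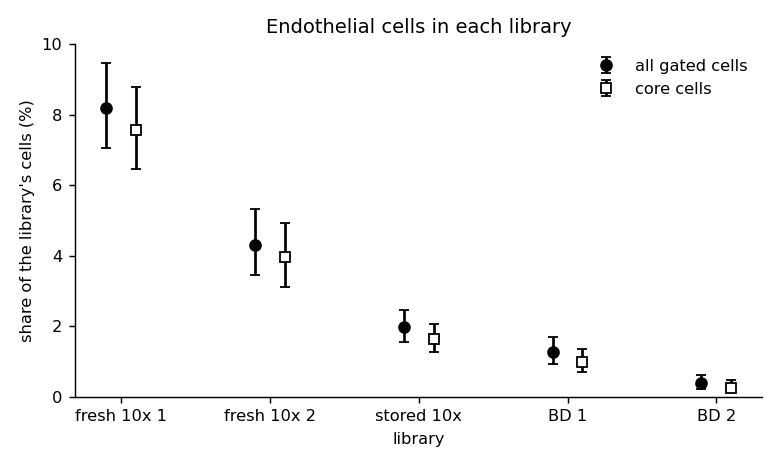
Endothelial share by library. The vertical axis gives the percentage of each library's cells that passed the endothelial gate (filled circles) or also the stricter core definition (open squares), with exact 95% binomial intervals, and the gated share runs from 8.19% in the first fresh 10x library to 0.382% in BD 2.

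Few cells lay near the limit of 4 UMIs. Over the libraries 37 cells that met the other limits had a sum of 3 and lay just outside, 45.9% of them with a UMI of another endothelial gene, and 18 had a sum of 4 and lay just inside, 77.8% of them with one. The share moved in both directions beyond that, with 8 of 10 cells at a sum of 5, 1 of 5 at a sum of 6 and 3 of 7 at a sum of 7. The gated cells held a median of 6852.5, 7880, 6424, 9493.5 and 6156 UMIs in the order fresh 10x 1, fresh 10x 2, stored, BD 1 and BD 2, and their UMIs summed to 1482071, 816447, 600550, 551327 and 147146. Mitochondrial transcripts took a median of 5.68%, 6.05% and 5.87% of UMIs in the 10x libraries, and 12.9% and 16.3% in BD 1 and BD 2. The mitochondrial share was higher on BD Rhapsody in the remaining cells as well (medians 15.2% and 19.8%, against 6.21 to 7.18% on 10x). No barcode of a gated cell was shared between 10x libraries. A further deposited matrix pools fresh 10x cells, only part of them found in the per-library matrices, and gave shares of 7.66% and 3.95%.

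The label was checked on 17 endothelial genes that the gate did not use. Their summed level, in UMIs per 1000000 UMIs of the same cells (CPM), was 8367, 8441, 6671, 7119 and 5328 in the 5 libraries in the order above, against 66.2 to 169 CPM in the remaining cells. It was 704 and 826 CPM in the fresh 10x cells that passed a mural gate (at least 4 UMIs over Rgs5 and 5 other pericyte genes), 295 to 1299 in fibroblasts, 62.3 to 81.4 in macrophages and 24.9 to 37.0 in epithelial cells. The gated cells of every library thus lay above the other classes for this sum. The mural gate was not free of fibroblast transcripts in any library. In its cells 10 mural genes summed to 9288 and 11412 CPM in fresh 10x, 4208 in the stored library, 1242 in BD 1 and 1089 in BD 2. There 6 fibroblast genes stood at 31215 and 29347 CPM in fresh 10x, and at 44442, 68268 and 66656 CPM in the other 3. Fibroblast transcripts thus outweighed mural ones in every library, most of all in BD 1 and BD 2. Numbers of endothelial cells per mural cell are therefore not given. Cd34, a sialomucin also made by fibroblasts, was at a similar level in BD Rhapsody fibroblasts and mural-gated cells. In fresh 10x mural-gated cells a list of 8 leukocyte adhesion genes, Cd34 among them, summed to only 277 and 249 CPM. Genes of the 17 other than Cd34 thus added to the 704 and 826 CPM there.

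**Figure D2:**
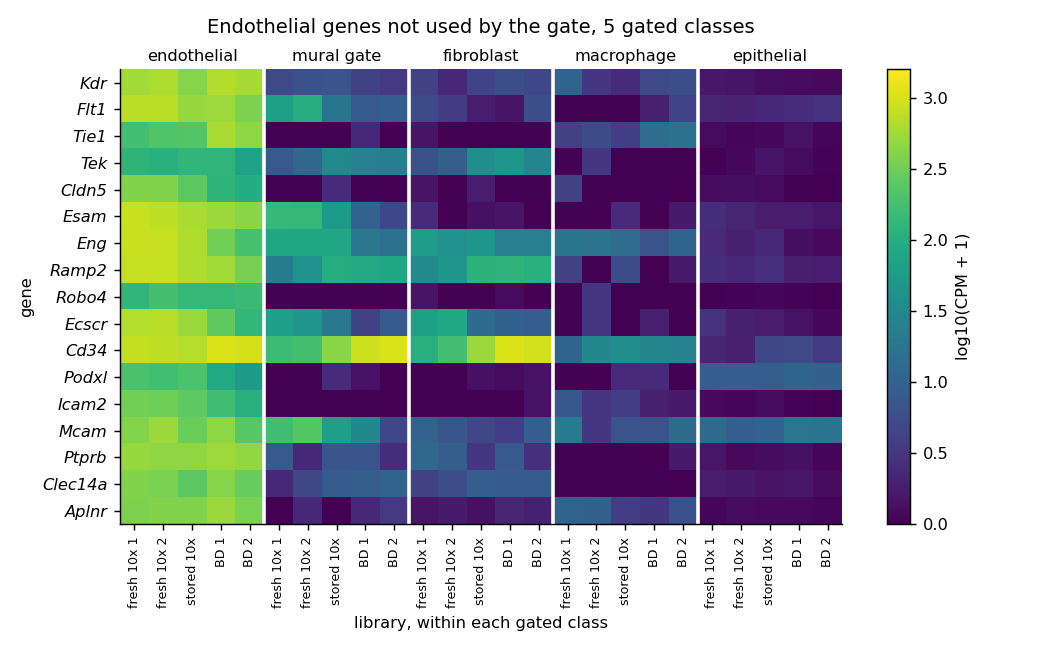
Levels of the 17 endothelial genes outside the gate. Colour gives log10(CPM + 1) for each gene (rows) in each library of 5 gated cell classes (columns). The endothelial block is bright throughout, and Cd34 is also bright in the mural gate and fibroblast blocks of the BD Rhapsody libraries.

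A minority of gated cells carried transcripts of other cell types, more of them outside the fresh 10x libraries. Of the gated cells, 12 of 170 and 7 of 83 in the fresh 10x libraries, 13 of 79 in the stored library, 9 of 48 in BD 1 and 5 of 16 in BD 2 held at least 10 UMIs per 10000 of Rgs5, the fibroblast genes Dcn, Col1a1 and Col1a2, or the T and B cell genes Cd3d, Cd3e and Cd79a. The summed level of 6 fibroblast genes in the gated cells was 1557 and 1151 CPM in the fresh 10x libraries, 7939 in the stored library, 8383 in BD 1 and 35393 in BD 2. These molecules sat in few cells. Decorin (Dcn), a proteoglycan of fibroblasts, gave 1007 UMIs in the stored library, 80.5% of them in 5 cells. In BD 1 the cytotoxic granule genes Gzma and Gzmb gave 645 and 611 UMIs, all in 2 cells. No doublet caller was applied, and how far joint capture of 2 cells accounts for such barcodes was not tested.

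Counts of genes called between libraries, and values of genes named there where stated, are therefore also given for core cells, a stricter set defined after seeing the data. A core cell had under 10 UMIs per 10000 of those 7 stromal and lymphocyte genes, under 10 of 9 leukocyte genes, and at least 20 of the 17 endothelial genes. There were 157, 76, 65, 37 and 11 core cells in the 5 libraries, and in them the 17 endothelial genes summed to 8424 to 9483 CPM and the 6 fibroblast genes to 72.5 to 152 CPM. Levels of these chosen genes in core cells are set by the definition, so none of the 17 is tested in core cells.

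**Figure D3:**
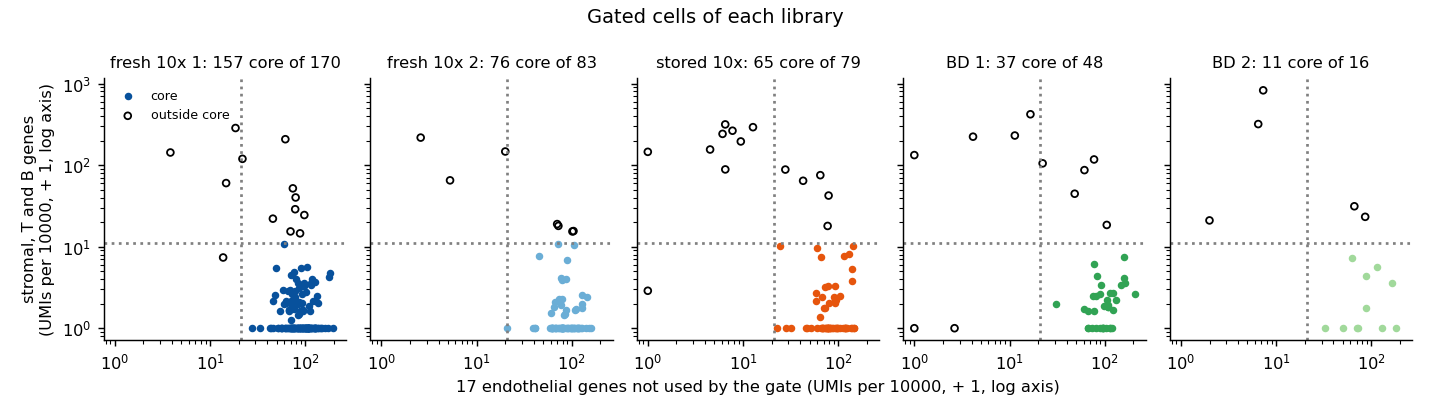
Gated cells one by one. Each point is a gated cell, with the UMIs per 10000 of the 17 endothelial genes on the horizontal axis and of the 7 stromal, T and B cell genes on the vertical axis (both plus 1, log axes). Filled points are core cells and open points fall outside the core limits, which the dotted lines mark for these 2 sums.

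Against the remaining tumour cells, the gated cells held vessel genes that the others nearly lacked. Adgrl4 was at 248, 305, 251, 268 and 238 CPM in gated cells and at most 0.218 CPM in the others, a log2 difference of 11.13. Robo4 stood at 127 to 179 CPM against at most 0.138, and Myct1, a membrane protein of endothelial cells, at 160 to 279 against at most 0.254. Among the 20 genes with the highest log2 difference and at least 100 CPM, values ran from 8.71 for Fam167b to 11.13 for Adgrl4. Other members of this set are Tie1, a co-receptor of the angiopoietin receptor, Ptprb, a phosphatase acting on that receptor, the SOX factors Sox17 and Sox18, and Gpihbp1, which holds lipoprotein lipase on the capillary wall. Of all genes measured well enough, 6344 of 13472 (47.1%) passed the 5% threshold of edgeR, a count model, with 17.8% higher and 29.3% lower in gated cells. Because the gate made this partition, neither this count, nor that in the core cells (58.4%, with 20.1% higher and 38.3% lower), nor the counts over gene lists that follow are read as a test.

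The VEGF receptors Kdr and Flt1 were high in gated cells, while Vegfa, Vegfb and Angpt1, ligands of the VEGF and angiopoietin axis, were higher in the others. Kdr, the main VEGF receptor, was at 574, 642, 410, 677 and 598 CPM in gated cells and at most 1.13 CPM in the others. Flt1, the other VEGF receptor, stood at 374 to 748 CPM against at most 3.8. Of the 14 genes of the VEGF and angiopoietin axis 10 were higher and 4 lower in gated cells, the lower ones including the ligands Vegfa (log2 difference -1.96), Vegfb (-1.39) and Angpt1 (-2.25). All 10 genes of the bone morphogenetic protein and TGF-beta list were higher, led by the co-receptor endoglin (Eng, 6.67) and the target Id1 (5.01). Of 11 Notch genes 9 were higher, with the tip cell ligand Dll4 at 136 to 304 CPM against at most 2.62 and the vessel receptor Notch4 at 74.8 to 109 CPM against at most 1.94. Hey1, a Notch target, was lower in gated cells (-1.14), where it stood at 23.6 to 88.3 CPM against 101 to 187 in the others.

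Structural and haemostatic genes were higher than in the remaining cells as a whole, which are mostly epithelial, but at levels that stromal cells shared. All 13 basement membrane genes were higher (median log2 difference 3.25 against -0.21 over all genes), and Col4a1, a chain of collagen IV, reached 3285, 3789.6, 2514, 3669 and 4866 CPM against 61.5 to 151 in the others. All 11 genes of coagulation and vessel tone were higher, including thrombomodulin (Thbd, 3.72), the protein C receptor (Procr, 4.42) and nitric oxide synthase 3 (Nos3, 6.99). Summed over the list, basement membrane genes were at 15254 to 25940 CPM in gated cells, 16473 to 23186 in fibroblasts and 205 to 351 in epithelial cells, and genes of coagulation and tone at 1087 to 1565, 1006 to 1301 and 33.1 to 47.5 CPM. Fibroblasts thus lay within the range of the gated cells for the first list and overlapped it for the second. Of 16 endothelial transcription factors 15 were measured and all 15 were higher. All 5 genes of class II antigen presentation were lower, with the invariant chain Cd74 at 7.42 to 56.6 CPM against 260 to 836. Their sum was at 10.8 to 79.9 CPM in gated cells, 8.96 to 108 in epithelial cells, 20.5 to 50.7 in fibroblasts and 30626 to 49069 in macrophages, so macrophages alone of these classes stood apart. Of 13 hypoxia and glycolysis genes 10 were lower and 1 higher, with lactate dehydrogenase A (Ldha) at -1.78. Lymphatic transcripts were few: 5 lymphatic genes summed to 45.9, 1.22, 11.7, 0 and 6.80 CPM in gated cells in the order above. Lyve1 had no UMI in gated cells and Mmrn1 had UMIs in the first fresh 10x library alone. Prox1, another gene of this list, had UMIs in 9.09% of the cells of the venous-like set described below.

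Within the gated cells, vessel classes could be seen. Each cell was thinned to 2000 UMIs so that depth did not set the result, leaving out 11, 6 and 14 shallower cells of the 10x libraries, and a cell was counted for a class when it held UMIs of at least 2 genes of that class list. These classes are ranges of a count that overlap, not cell types. Capillary genes marked 74.8%, 75.3%, 64.6%, 56.2% and 75% of gated cells in the order above. Venous genes marked 38.4%, 29.9%, 29.2%, 54.2% and 43.8%. Arterial genes marked 23.3%, 22.1%, 21.5%, 4.17% and 25%, and tip cell genes 15.1%, 18.2%, 13.8%, 10.4% and 0%. Epithelial cells, which should lack these genes, were marked at 0.0326 to 0.221% for capillary, at most 0.215% for venous, 0.443 to 0.959% for arterial and 1.40 to 2.58% for tip genes at the same depth.

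The 10x libraries, fresh or stored, gave arterial shares within each other's intervals. BD 1 had 2 arterial cells of 48 (exact 95% interval 0.509 to 14.3%), below the interval of the first fresh 10x library (16.9 to 30.6%) and overlapping that of the second (13.4 to 33.0%), and BD 2, with 4 of 16, had an interval of 7.27 to 52.4%. The 0 of 16 tip cells in BD 2 allows a share of up to 20.6%. Without thinning, the arterial share was 20.8 to 59.0%, and the tip share was 49.4% in both fresh 10x libraries, 27.8% in the stored library, 41.7% in BD 1 and 25% in BD 2. Cell-cycle genes marked 11.9%, 7.79%, 7.69%, 10.4% and 0% of thinned gated cells, and 10.1 to 11.6% of epithelial cells, which divide themselves and give no background here.

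Clustering of the gated cells separated arterial, venous and cycling sets, and no set had more than 2 of 7 capillary or 1 of 6 tip markers over 2-fold above the others. A set of 47 cells was arterial-like: Gja4, the arterial connexin 37, reached 1151 and 1598 CPM in its fresh 10x cells, beside Stmn2, Hey1 and the chemokine Cxcl12, and 7 of 8 arterial markers were over 2-fold above the other gated cells. A set of 77 cells was venous-like, with all 6 venous markers over 2-fold above the others, Selp at 1561 and 1516 CPM and Ackr1 at 597 and 929 CPM in its fresh 10x cells. A cycling-like set of 43 cells had all 12 cell-cycle markers raised and a median of 14638 UMIs, more than any other set with high endothelial levels. These genes helped to define the clusters and are no separate finding.

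Of the other sets 3 were given no name because fewer than 3 markers of any list were over 2-fold above the rest. One of 77 cells was led by Trp53i11, Esm1, Cxcr4 and Kit, and held Cldn5 at 768 and 641 CPM in its fresh 10x cells. Esm1 stood at 302 and 201 CPM there, below the 650 and 410 CPM of the arterial-like set. One of 65 cells was led by the fatty-acid binders Fabp5 and Fabp4 and had a median of 4229 UMIs, the lowest. One of 42 cells was led, among little-known genes, by the adrenomedullin receptor component Ramp3 and by the growth factor pleiotrophin (Ptn), at 2961 and 2804 CPM in its fresh 10x cells. The remaining sets held markers of other cell types. A set of 23 cells carried all 10 mural markers, Rgs5 at 2681 and 1524 CPM, together with Cdh5, a gene of the gate, at 786 and 1593 CPM. Its cells held a median of 69.2 UMIs per 10000 of the 17 endothelial genes that the gate did not use. Mural and endothelial transcripts were thus both present in this set. A set of 18 cells had all 6 fibroblast markers and a median of 5.51 UMIs per 10000 of the 17 endothelial genes, and the last 4 cells were led by leukocyte genes. The numbers of cells were not compared between libraries, because the defining genes differ between the platforms.

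**Figure D4:**
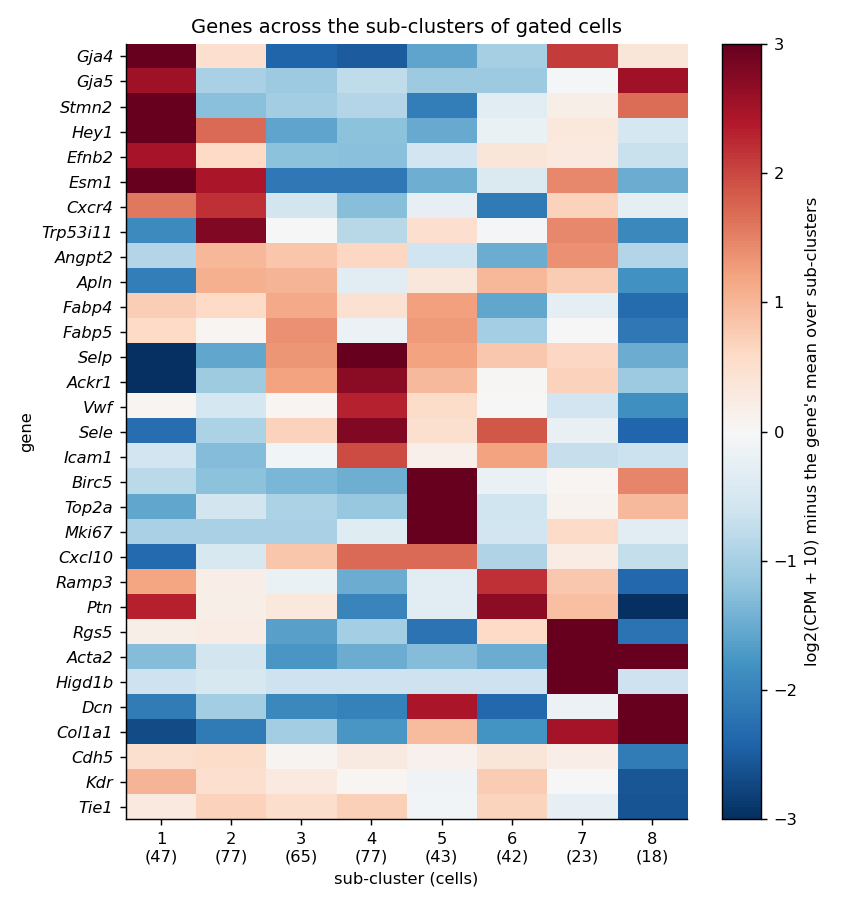
Genes across the sub-clusters of gated cells. Colour gives log2(CPM + 10) minus the gene's mean over sub-clusters, with sub-clusters in columns and their numbers of cells in brackets (4 cells of a ninth set are not drawn). Gja4, Stmn2 and Hey1 stand out in sub-cluster 1, Selp and Ackr1 in 4, cell-cycle genes in 5, Ptn in 6, Rgs5 in 7 and Dcn in 8.

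The stored library was compared with the fresh 10x pair to ask what overnight cold storage of digested tumour changed in vessel cells. Among all gated cells, 302 genes rose (3.44%) and 38 fell (0.433%) of 8778 tested (3.87% called) by edgeR's quasi-likelihood test, and in core cells 46 rose (0.622%) and 3 fell (0.0406%) of 7398 (0.662%). The genes that rose in all gated cells were led by those of other cell types: Clec3b (6.32), Dpt (6.31), Sfrp4 (5.58) and Dcn (4.00, all log2 fold change) are matrix genes of fibroblasts, and all 6 fibroblast markers rose. Storage, library and tumour cannot be told apart with 1 stored library. The T cell gene Cd8a had 9 UMIs, all in 1 stored cell, and its fitted value depends on a prior count. Of the 340 calls, 46 (13.5%) were also called in core cells, which is 93.9% of the core calls, and 174 of the 340 had enough counts to be tested there. All p-values in this and the following comparisons rest on the spread between the 2 fresh 10x libraries, which may be technical, and assume the single libraries to vary like them.

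Pleiotrophin (Ptn) fell most in core cells and also in all gated cells. It stood at 1005 and 846 CPM in the gated cells of the fresh 10x libraries and at 163 in the stored library, a log2 fold change of -2.48 (SE 0.21, adjusted p = 3.64e-06). In core cells the levels were 1100.5 and 700.3 against 226 CPM (-1.96, SE 0.28, adjusted p = 0.00489), and DESeq2, another count model, gave -1.95 with adjusted p = 0.00476. Kcne3, a potassium channel subunit listed here among tip cell genes, fell from 225 and 326 CPM to 71.6 (-1.90, adjusted p = 0.000649), with -1.23 and adjusted p = 0.0426 in core cells. The RNA-binding protein gene Hnrnpa0 fell as well (558 and 536 against 245 CPM, -1.14, adjusted p = 0.00186), with -0.99 and adjusted p = 0.0394 in core cells. For all 3 genes the stored library lay below both fresh libraries. In core cells DESeq2 called 1 lower gene, Ptn, and thus neither Kcne3 nor Hnrnpa0.

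Icam1, Sele, Hes1 and Cxcl12 were higher in gated cells of the stored library by edgeR, though not by DESeq2. Icam1, which leukocytes hold on to when they leave the blood, was at 303 and 241 CPM in fresh and 618 CPM in stored gated cells (log2 fold change 1.20, SE 0.19, adjusted p = 0.0012), and in core cells it rose by 1.45 (adjusted p = 0.00172). E-selectin (Sele) stood at 108 and 132 against 211 CPM (0.85, adjusted p = 0.0357), the Notch target Hes1 at 347 and 342 against 666 CPM (0.97, adjusted p = 0.00234). The chemokine Cxcl12 was at 254 and 298 against 671 CPM (1.31, adjusted p = 0.00028). Cxcl10, another chemokine, was called too (54.7 and 61.2 against 127 CPM, 1.16, adjusted p = 0.00945), but its 76 UMIs in the stored library came from 5 of 79 cells, 84.2% of them from 2 cells, whereas 21 of 170 and 9 of 83 cells held it in fresh 10x. All 5 were called in core cells as well, at log2 values of 1.13 to 1.52. Of 7 leukocyte adhesion genes tested, 2 rose and none fell. DESeq2 called none of these 5 in gated cells (for Cxcl10 it gave no adjusted p), where it called 53 higher and 1 lower gene in all, and its adjusted p for Icam1 in core cells was 0.0546.

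Of the 17 endothelial genes none passed the test in gated cells (median log2 fold change -0.31, against -0.03 over all genes). None of 7 arterial genes tested, of 13 basement membrane genes or of 9 genes of the BMP and TGF-beta list passed either. Cdh5, a gene of the gate, was at 1026 and 1333 against 681 CPM. Sox18 fell in all gated cells (-1.17, adjusted p = 0.0163), as did the secreted growth factor binder Igfbp3 (-0.84, adjusted p = 0.00714), but in core cells their adjusted p was 0.355 and 0.487. The highest fold changes in core cells belonged to mt-Atp8 (3.07), Rps28 (2.36), Wfdc18 (2.30), Mt1 (2.18), Ndufa3 (2.09), Rpl38 (1.84) and the milk protein gene Lalba (1.84). For Rps28, a ribosomal protein gene, the remaining cells of the same libraries differed too. It was at 422 and 554 CPM in fresh and 2544 in stored gated cells, and at 624, 815 and 3704 CPM in the others. Lalba and Wfdc18 are genes of the tumour epithelium, where Lalba stood at 972, 1362 and 1531 CPM in the remaining cells and at 20.2, 33.1 and 86.6 CPM in gated ones. In the remaining cells the stored library lay above the second fresh one for Lalba by less than the fresh libraries differed from each other.

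Whether the stored library differed from the fresh pair in another way in vessel cells than in the rest was tested by the interaction of cell class and group. It called 278 genes higher (1.77%) and 33 lower (0.21%) of 15707 (1.98%), and 39 (0.25%) and 13 (0.0834%) in core cells (0.334%). Ackr1, the venous chemokine receptor, was at 170 and 179 CPM in fresh and 94.9 CPM in stored gated cells, whereas in the remaining cells it was at 0.508, 0.311 and 1.64 CPM (interaction -2.94, SE 0.40, adjusted p = 2.18e-06). In core cells the interaction was -2.76 with adjusted p = 0.000375. The levels of Ackr1 in the remaining cells are close to 0, so the size of its interaction is uncertain. Kcne3 (-2.53, adjusted p = 6.68e-07), Ptn (-1.95, adjusted p = 5.9e-07) and Cd34 (-1.59, adjusted p = 3.72e-06) were lower in the same sense, and Kcne3 and Ptn remained so in core cells, at -1.82 and -1.36, though DESeq2 gave an adjusted p of 0.747 for Ptn in core cells. For Cd34 the gated cells stood at 810 and 789 against 706 CPM and the remaining cells at 13.3 and 15.1 against 35.6 CPM. The chemokine Cxcl10 moved the other way, with an interaction of 1.47 (adjusted p = 0.00202) in gated and 1.86 (adjusted p = 0.000266) in core cells, both resting largely on 2 stored cells, as given above. Rps28 (-0.06) and mt-Nd3 (-0.12) had interactions near 0. The remaining cells are a mix that differed between libraries. There 10 mural genes summed to 441 and 452 CPM in fresh 10x, 123 in the stored library and 120 in BD 1. How far a changed mix adds to the interactions was not tested.

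BD 1 was compared with the same fresh 10x pair to ask how the platforms measure vessel cells from tumours titled fresh, so both comparisons share their controls. Here 1158 genes were higher (13.2%) and 1090 lower (12.4%) of 8778 (25.6% called), and 642 (8.68%) and 659 (8.91%) of 7398 in core cells (17.6%). Platform, library and tumour cannot be told apart with 1 such library. BD 2 enters as a second set of levels: in 3338 genes of at least 50 CPM, both BD libraries lay above all 3 10x libraries for 787 (23.6%) and below them for 1098 (32.9%).

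Arterial genes read lower on BD Rhapsody in sums over the gated cells. Such sums also depend on how many arterial cells each library held, which cannot be told apart from the platform here. Gja4 stood at 218, 250 and 263 CPM in the gated cells of the fresh and stored 10x libraries and at 29.0 and 40.8 CPM in BD 1 and BD 2 (BD 1 against fresh 10x, log2 fold change -3.0, SE 0.29, adjusted p = 4.41e-06). Stmn2, a tubulin-binding protein gene in the arterial list, was at 134, 129 and 122 CPM against 9.07 and 0 (-3.83, adjusted p = 6.4e-06). Ephrin-B2 (Efnb2), the arterial surface ligand, was at 167, 263 and 122 against 70.7 and 68.0 CPM (-1.58, adjusted p = 0.00171). The BD libraries lay below all 10x libraries for these 3 genes, with 16 UMIs of Gja4 in 4 of 48 cells of BD 1. Hey1 was lower in BD 1 only (23.6 against 68.1 and 84.5 CPM, -1.67, adjusted p = 0.00325), since BD 2 was at 88.3 CPM, and Gja5 had no UMI in either BD library against 5.0 to 40.4 CPM on 10x. Of 7 arterial genes tested 5 were lower and none higher in gated cells, and 4 of 7 in core cells, where Gja5 was not called. Fbln5, an elastic fibre protein gene in the list, was at 170 and 200 against 210 CPM.

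Venous genes read higher in BD 1, and for part of them in BD 2, with the same limit for the number of venous cells. Ackr1 was at 170, 179 and 94.9 CPM on 10x and at 370 and 272 CPM on BD (BD 1 against fresh, 1.09, SE 0.19, adjusted p = 0.000716). Sele stood at 108 and 132 CPM in fresh 10x against 386 in BD 1 and 136 in BD 2 (1.70, adjusted p = 2.57e-05), and von Willebrand factor (Vwf) at 117 and 115 against 230 and 81.6 CPM (0.99, adjusted p = 0.00232). Nr2f2, the vein-specifying nuclear receptor, was at 119, 113 and 107 CPM on 10x and 297 and 245 CPM on BD (1.35, adjusted p = 0.000168). Of the 6 venous genes 4 were higher in gated cells and 5 in core cells, where P-selectin (Selp) was at 0.84 and Lrg1 at 0.49. Vcam1 was called higher in gated cells (1.31) but stood at -0.83 with adjusted p = 0.305 in core cells. DESeq2 called 93 genes higher and 61 lower in all gated cells. Of the genes above it kept Gja4 (adjusted p = 0.0181), while its adjusted p was 0.0757 for Stmn2, 0.332 for Sele, 0.747 for Nr2f2 and 0.954 for Ackr1. In core cells it called Gja4 (0.00787) and Sele (0.0247).

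**Figure D5:**
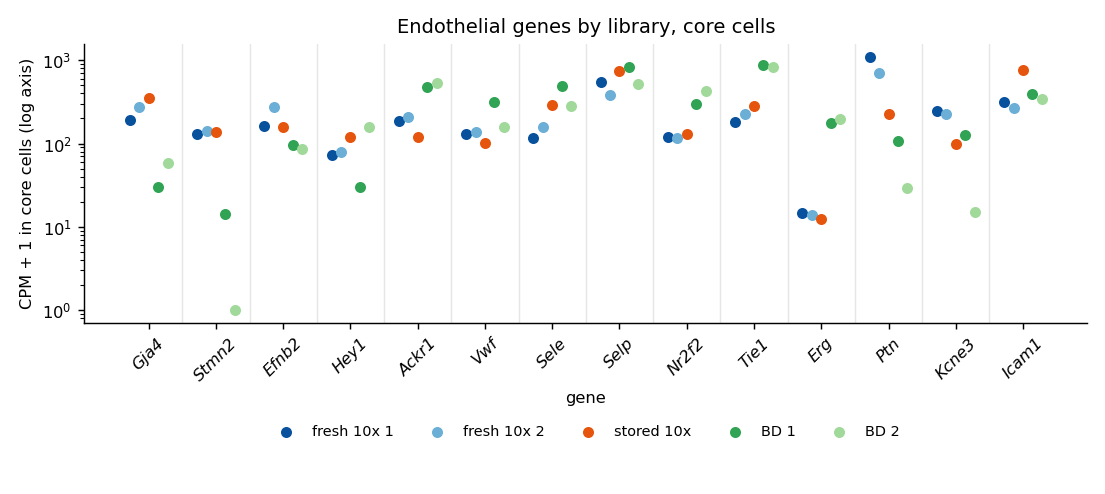
Levels of 14 vessel genes in core cells of each library. Points give CPM + 1 on a log axis, 1 per library. BD Rhapsody lies below 10x for Gja4, Stmn2 and Efnb2 and above it for Ackr1, Nr2f2, Erg and Tie1 (one of the genes that define core cells), and the stored library lies below both fresh ones for Ptn and Kcne3 and above them for Icam1.

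Other endothelial regulators differed in both directions. The transcription factor Erg was at 13.5, 12.2 and 8.33 CPM on 10x and 134 and 95.1 CPM on BD (log2 fold change 3.34, SE 0.30, adjusted p = 2.03e-06), and the co-receptor Tie1 at 173, 214 and 221 against 617 and 455 CPM (1.68, adjusted p = 1.66e-05). Collagen XV (Col15a1) was at 379, 514 and 421 against 1175 and 1182 CPM (1.40, adjusted p = 6.83e-05). Lower were Id1, the target of BMP signalling (1019, 982 and 656 against 279 and 360 CPM, -1.84, adjusted p = 5.79e-06), Klf2, a factor induced by blood flow (993, 899 and 793 against 312 and 204 CPM, -1.60, adjusted p = 2.37e-05), and Cldn5 (391, 388 and 248 against 120 and 95.1 CPM, -1.70, adjusted p = 5.23e-05). Erg, Col15a1, Id1 and Klf2 were called in the same direction in core cells. Ptn was lowest on BD, at 72.6 and 13.6 CPM against 1005 and 846 in fresh 10x (-3.67, adjusted p = 7.25e-08), and Esm1, the tip cell proteoglycan, was at 25.4 and 20.4 against 141 and 159 CPM (-2.55, adjusted p = 3.48e-05). Of the 17 endothelial genes 1 was higher and 7 lower in gated cells. Cxcl12 changed sign with the cells kept (0.95 in gated and -1.68 in core cells), and 88.7% of its UMIs in BD 1 came from cells outside the core.

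Some of the widest platform gaps were not particular to vessel cells. Malat1, a nuclear noncoding RNA, was at 15175 and 20287 CPM in fresh 10x gated cells and 1016 in BD 1 (-4.13), and at 10905, 12863 and 1408 CPM in the remaining cells. The ribosomal gene Rps10 (-4.87) was low in both kinds of cell on BD, while mt-Nd3, a mitochondrial complex I gene, stood at 255 and 298 CPM in fresh and 4324 CPM in BD 1 gated cells and at 352, 460 and 7121 CPM in the others. The interaction with cell class called 403 genes higher (2.57%) and 149 lower (0.949%) of 15707 (3.51%), and 117 (0.751%) and 89 (0.571%) in core cells (1.32%). It was -3.05 for Ptn (adjusted p = 9.77e-11; -2.39 in core cells) and -2.47 for Cd34 (adjusted p = 9.77e-11). For Cd34 the gated cells stood at 810 and 789 CPM in fresh 10x against 1034 in BD 1, and the others at 13.3 and 15.1 against 116 CPM. Mmrn2, a matrix protein of the vessel wall, had an interaction of 5.36 (adjusted p = 9.09e-12). Its gated cells were at 319 and 392 CPM in fresh 10x against 504 in BD 1, and the remaining cells at 1.78 and 1.93 against 0.0675 CPM. These remaining-cell levels are close to 0, so the size of the Mmrn2 interaction is uncertain. The interaction for Gja4 was 0.28 (adjusted p = 0.936) and for Erg 1.33 (adjusted p = 0.827). In the remaining cells Gja4 was at 4.07 and 5.39 CPM in fresh 10x against 0.540 in BD 1. Erg stood there at 0.0726 and 0.0691 against 0.355 CPM, too close to 0 to be read. The remaining cells include some with an endothelial sum of 1 to 3, so vessel transcripts may be among them. On simulated counts the interaction recovered 20.3% of changes of 2 log2 units, so a gene not called is not shown to change alike in both classes.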

How the data were processed

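The authors deposited UMI counts per gene and cell for each library, as whole numbers without normalization. Cell Ranger 3.0.1 and the mm10 build are named in the submitters' processing notes, which do not tie them to a library type, and the tool that counted the BD Rhapsody reads is not given in the sources used here. Libraries held 29166129 to 59957945 UMIs. From the deposited counts, cells were gated as described (no other filter on cells, no doublet caller), and counts were summed over gated and over remaining cells of each library, leaving out cells that passed the endothelial sum but failed the C1q or keratin limit. Core cells and their limits were set after seeing the data. The members and gene lists were chosen with earlier results of these data known.

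Sums were tested with edgeR 4.0.16 (R 4.3.3): TMM scaling, filterByExpr, quasi-likelihood test and Benjamini-Hochberg adjustment over all genes tested, at 0.05. Fits within gated cells used 4 groups (fresh 10x, stored 10x, BD 1, BD 2). Fits with the remaining cells had the library as a block. Within gated cells and for the interactions, only the fresh 10x pair gives residual spread between libraries. The comparison with remaining cells takes its spread from all libraries. Counts were also simulated with the same dispersion for every gene, and genes of at least 50 CPM were changed by 1, 2 and 3 log2 units. The fit of BD 1 against fresh 10x recovered 17.8%, 78.5% and 98.4% of them, and its interaction 0%, 20.3% and 72.7%. At that setting changes of 1 log2 unit were mostly missed. Levels are CPM over the summed cells. Vessel classes were counted after thinning to 2000 UMIs, and gated cells were clustered with Leiden in scanpy 1.11.5. Genes of the lists were named, with the 20 highest genes above 100 CPM for the comparison with remaining cells and up to 10 a direction above 50 CPM for the others, applied also to core cells; 1 gene so named is not reported here. Cxcr4, Kit, Trp53i11 and the other leading genes of clusters were chosen from the values. Alternatives were DESeq2 1.42.0, library totals in place of TMM, no filter on low counts, other gates and cell filters, the pooled fresh 10x matrix, BD 1 and BD 2 as 1 group by their titles, and leaving out each fresh 10x library.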

Additional observations from a re-analysis of the deposited data

Results flagged for a closer look

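Genes whose difference between libraries was not the same in endothelial and in remaining cells, by the interaction test of edgeR, are given here as log2 differences of the changes. For the stored library 311 genes passed, and those named were Cd8a (10.47), Dpt (4.90), Apod (4.66), Clec3b (4.59), Cxcl14 (4.45), Smoc2 (4.30), Tyrobp (4.28), Cyp1b1 (4.07), Sfrp4 (3.89) and Pdgfra (3.75) on the higher side. Except for Cd8a and Tyrobp, which mark lymphocytes and myeloid cells, these are genes of fibroblasts. On the lower side stood Ackr1 (-2.94), Kcne3 (-2.53), Ptn (-1.95), the angiopoietin receptor Tek (-1.70), Cd14 (-1.62), Cd34 (-1.59), the interferon regulator Irf1 (-1.54), Trim25 (-1.47), Clk4 (-1.38) and the adrenomedullin receptor component Ramp2 (-1.32). In core cells Ackr1, Kcne3, Ptn, Cd14 and Irf1 were called again, at -2.76, -1.82, -1.36, -1.40 and -1.29, and Tek, Cd34 and Ramp2 are among the genes that define that set. The value for Ackr1 depends on very low levels in the remaining cells, as given above.

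For BD 1 552 genes passed. Those named on the higher side were Cd7 (15.06), Cd8a (12.97), Gzmb (11.26), Rgs1 (5.94), Tyrobp (5.78), Mmrn2 (5.36), Cpxm1 (4.84), Il33 (4.62), Smoc2 (4.61) and Peg3 (4.25). In BD 1 the UMIs of Cd7, Cd8a, Gzmb and Rgs1 each came from 2 gated cells, as did 96.6% of those of Tyrobp. The size of a fit against libraries at or near 0 depends on the prior count. On the lower side stood Sfrp2 (-3.87), Thbs4 (-3.31), Ptn (-3.05), Tm6sf1 (-2.90), Csf2rb (-2.51), Parvb (-2.48), Pde8a (-2.48), Cd34 (-2.47), Ly6c1 (-2.44) and Nrros (-2.41). In core cells Mmrn2 was at 5.91, Ptn at -2.39 and Ly6c1, a surface antigen of mouse endothelium, at -2.76. The values for Mmrn2 depend on very low levels in the remaining cells, as given above. Both sets use the same fresh 10x libraries as controls, and the part of fibroblast and lymphocyte transcripts in all gated cells was not tested beyond the core values.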

How the results depend on the processing

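In the storage comparison 340 genes were called, against 54 with DESeq2, 581 with library totals, 570 with no filter on low counts, 109 with an endothelial sum of at least 6, 561 with at least 4 per 10000, 570 with cells of at least 2000 UMIs and at most 20% mitochondrial, and 68 without cells with stromal, T or B transcripts. Chosen after seeing the data were 49 in core cells (18 with DESeq2), 563 without BD 2, 88 with BD 1 and BD 2 as 1 group, and 139 to 147 without 1 fresh 10x library. For BD 1 the 2248 calls became 154 with DESeq2, 1301 in core cells (129 with DESeq2) and 724 to 823 without 1 fresh library. The storage interaction (311) became 70 with DESeq2, 52 in core cells (10), 189 at a sum of 6, 62 without stromal cells and 65 to 111 without 1 fresh library; the BD 1 interaction (552) became 83, 206 (33), 269 without stromal cells and 160 to 234. The comparison with remaining cells stayed within 1.5 times.

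With library totals the higher share of calls became 49.9% (from 37.8%) against remaining cells, 70.9% (from 88.8%) for storage and 50.8% (from 73.0%) for the BD 1 interaction. The median of all genes then shifted from -0.21 to -0.01 and from 0.03 to -0.16 in the first and last of these. Whether replicate numbers pair the samples could not be decided. Differences between replicates 1 and 2 had a correlation of 0.0217 between the platforms over 8853 genes, but BD 2 held only 16 gated cells. With BD 1 and BD 2 as 1 group, the replicate block gave 1527 calls for BD against fresh 10x and 525 for the interaction.

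Fresh 10x class shares (%) not thinned, with at least 1 gene and with at least 3 were 49.4, 53.0 and 4.17 for tip, 51.6, 56.7 and 16 for arterial, 52.1, 73.1 and 22.0 for venous, and 86.6, 93.3 and 50.9 for capillary. Cycling gave 17.3 and 17.2 in the first 2 (6.85 in core cells), and lymphatic 0.294 and 0.314 (0.321 at a sum of 6, 0.340 in core cells). A sum of 6 gave 26.6 for arterial and 79.0 for capillary, and core cells 75.8 for capillary.

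Some single genes changed sign, and the cause was not tested. With the pooled matrix Apod gave -1.29 for storage, -0.76 for BD 1 and -0.18 for the storage interaction. Cxcl12 in BD 1 gave -1.68 in core cells (-1.71 with DESeq2), -1.28 with a sum per 10000 and -1.78 without stromal cells, and Vcam1 -0.83 and -0.92. At a sum of 6 Cyp1b1 gave -3.40 for storage and -8.04 for its interaction, and Cd8a -0.64. In core cells the storage interaction was -0.63 for Cd8a, -7.82 for Cxcl14 and -6.44 for Smoc2, with -7.82 and -6.44 for the last 2 without stromal cells. The BD 1 interaction in core cells was -1.14 for Cd7, -1.11 for Cd8a, -6.26 for Gzmb, -8.36 for Rgs1, -7.78 for Cpxm1, -8.67 for Peg3 and -6.69 for Smoc2, with -7.78, -8.67 and -6.69 for the last 3 without stromal cells. Sfrp2 was 1.55 in core cells and 1.44 without stromal cells. With BD 1 and BD 2 as 1 group Sfrp2 gave 1.38 (1.10 with the replicate block; 0.27 to 4.00 without 1 fresh library) and Thbs4 1.56 (1.12; 0.73 to 1.96).

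The single stored and BD 1 libraries limit the precision of the comparisons, and the 16 gated cells of BD 2 that of its levels, so many smaller differences may have been missed.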
